A study of Mus musculus with 59 samples.

Results

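The change described here is that of the mouse cortex between days 6-7 and days 10-12 after birth. Its 16 mice, of 59 in the series, are the 7 mice whose labels give day 6 or 7 and the 9 mice whose labels give day 10, 11 or 12. Control and transgenic mice were pooled, and genotype and line were covariates. The series asked how a human gene for glutamate dehydrogenase, GLUD2, which mice lack, changes gene expression in the cortex over life, by polyA RNA sequencing of 1 library per mouse. All mice were C57Bl/6. Transgenic mice (GLUD2+/-) carried a human bacterial artificial chromosome, RP11-610G22, with GLUD2 on it, and 2 lines, a and b, each had control littermates without it. The days 6-7 group held 4 control and 3 transgenic mice, 3 of line a (all day 6) and 4 of line b (2 of day 6 and 2 of day 7), 3 female and 4 male. The days 10-12 group held 4 control and 5 transgenic mice, 5 of line a (4 of day 10 and 1 of day 11) and 4 of line b (all day 12), 5 female and 4 male. Line and age cannot be told apart in the older group, because its line b mice were all the oldest. Mice are called by the numbers of their labels.

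In these days the mouse cortex ends most of its cell production and young neurons extend their axons and dendrites. Synapses form in large numbers, astrocytes spread around them and the first myelin appears. The eyes open soon after. Many protein families replace an early member by a later one, as in the NMDA receptor, where subunits of the newborn brain give way to those of the adult.

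Values are RPKM, reads scaled to transcript length and library size. The estimated depth of the 16 libraries was 8.85 to 11.9 M reads and was higher at days 6-7 (10.9 M ± 0.941, SD, n = 7) than at days 10-12 (9.85 M ± 0.636, n = 9; exact permutation p = 0.0193, two-sided). Markers of neighbouring brain tissue differed widely between libraries, and the tissue content itself was not measured. The list means of hypothalamic markers stood 1.34 to 1.66 above the mean of the 16 mice, on the log2 scale, in mice 7, 10 and 38. The thalamic list stood 1.4 above it in mouse 6 and 1.32 above it in mouse 38. Transthyretin (Ttr), the main product of the choroid plexus, was 547 RPKM in mouse 6 and 278 in mouse 34, against 0.361 to 75.4 in the other 5 mice of days 6-7, and 124 to 214 in mice 10, 11 and 38, against 0.413 to 1.01 in the other 6 of days 10-12. Summed over the list, hypothalamic markers ran from 46 to 221 RPKM at days 6-7 and from 41.8 to 321 at days 10-12, and thalamic markers from 32.1 to 144 and from 23.1 to 131. Striatal markers summed to 38.9 to 211 and 59.3 to 409 RPKM, choroid plexus and ependymal markers to 6.09 to 578 and 4.32 to 221. No marker of these 4 lists was at 0 in all 16 mice. Of those tested, 0 of 7 hypothalamic, 1 of 6 thalamic, 2 of 12 striatal and 3 of 9 choroid plexus and ependymal genes passed. The threshold for a difference between the ages was an adjusted p under 0.05 (limma), which 46.5% of all genes tested passed. The median log2 changes of the lists were 0.07, -0.464, 0.496 and -1.002, in the same order. Levels differed widely between mice, so a marker that did not pass may still have changed. The markers of cortical excitatory layers summed to 160 to 388 RPKM at days 6-7 and 134 to 395 at days 10-12, with the lowest list mean in mouse 38 (-0.77). Results below are given also with these 4 tissue lists as covariates, or without mice 6, 7, 10 and 38, where that ends a call or moves a value or a count by over 1.5 times. The mice left out are all of line a. Without them mouse 34 is the only line a mouse of days 6-7, so that fit rests mostly on line b. With the covariates 19.3% of all genes were higher and 24.8% lower, and without the 4 mice 18.2% and 27.6%.

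**Figure D1:**
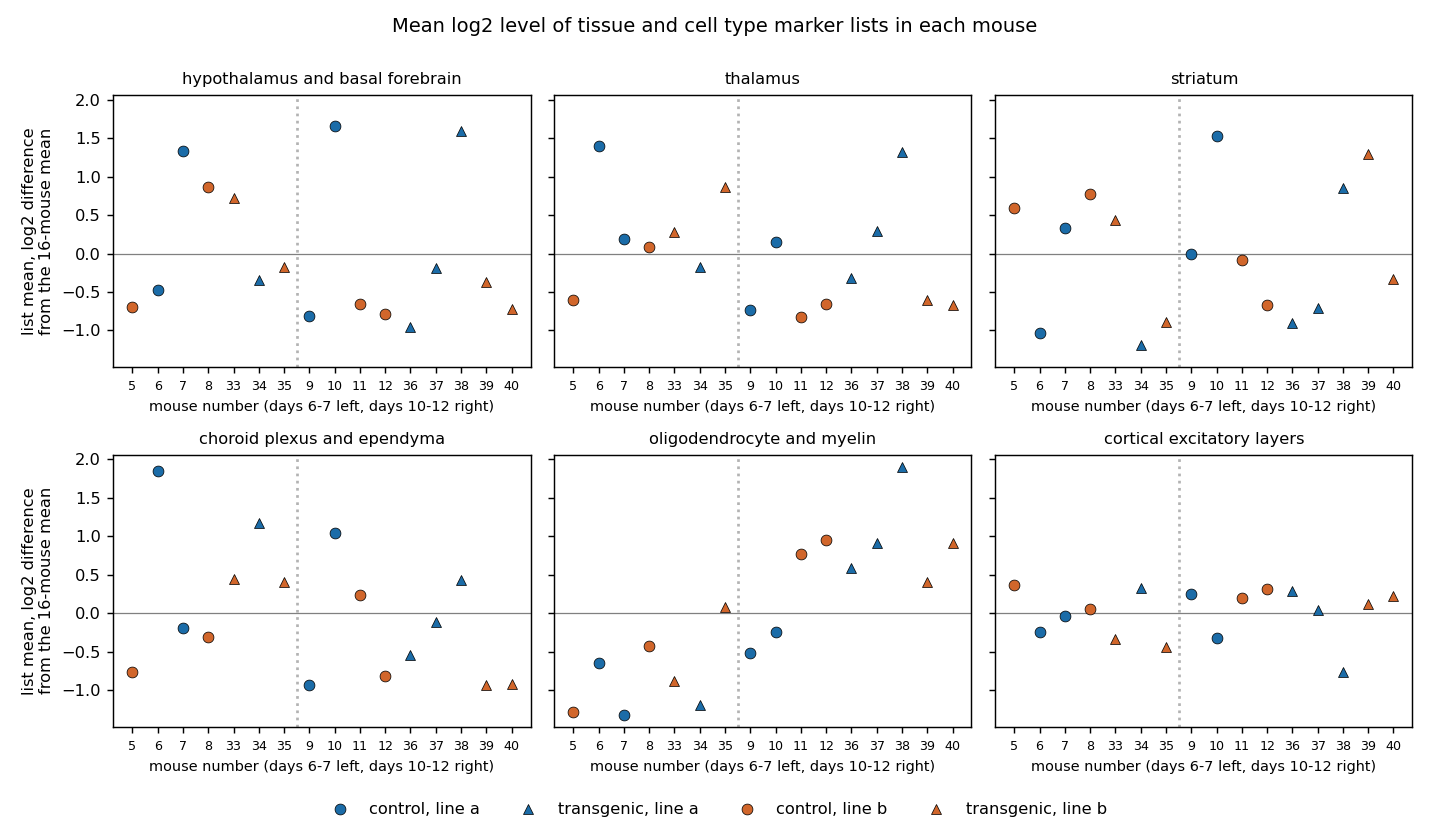
Mean log2 level of 6 marker lists in each of the 16 mice (y axis, difference from the mean of the 16), with mice of days 6-7 left of the dotted line and those of days 10-12 right of it. Symbols give genotype and colours give line. Mice 7, 10 and 38 are high in the hypothalamic list and mice 6 and 38 in the thalamic list, while the myelin list is highest in mouse 38 (1.90).

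Of 15350 genes tested, 7135 (46.5%) differed between the ages at an adjusted p under 0.05 (limma, Benjamini-Hochberg over all genes). At days 10-12, 2850 (18.6%) were higher and 4285 (27.9%) lower. Most changes were small, since 243 (1.58%) rose and 214 (1.39%) fell at least 2-fold. The RPKM of the 7 and 9 mice did not overlap for 565 genes that were higher (3.68%) and 1067 that were lower (6.95%). The median of all genes stood at -0.06 on the log2 scale. After scaling to the median ratio it stood at -0.01, and 3544 genes (23.1%) were then higher and 3420 (22.3%) lower, so that 50.9% of the calls were rises in place of 39.9%. Each list count below is therefore to be read against 18.6% higher, 27.9% lower and a median of -0.06, and 46.5% of any list would be called at the rate of all genes. In a bulk library fewer cells of a type and less RNA per cell cannot be told apart.

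**Figure D2:**
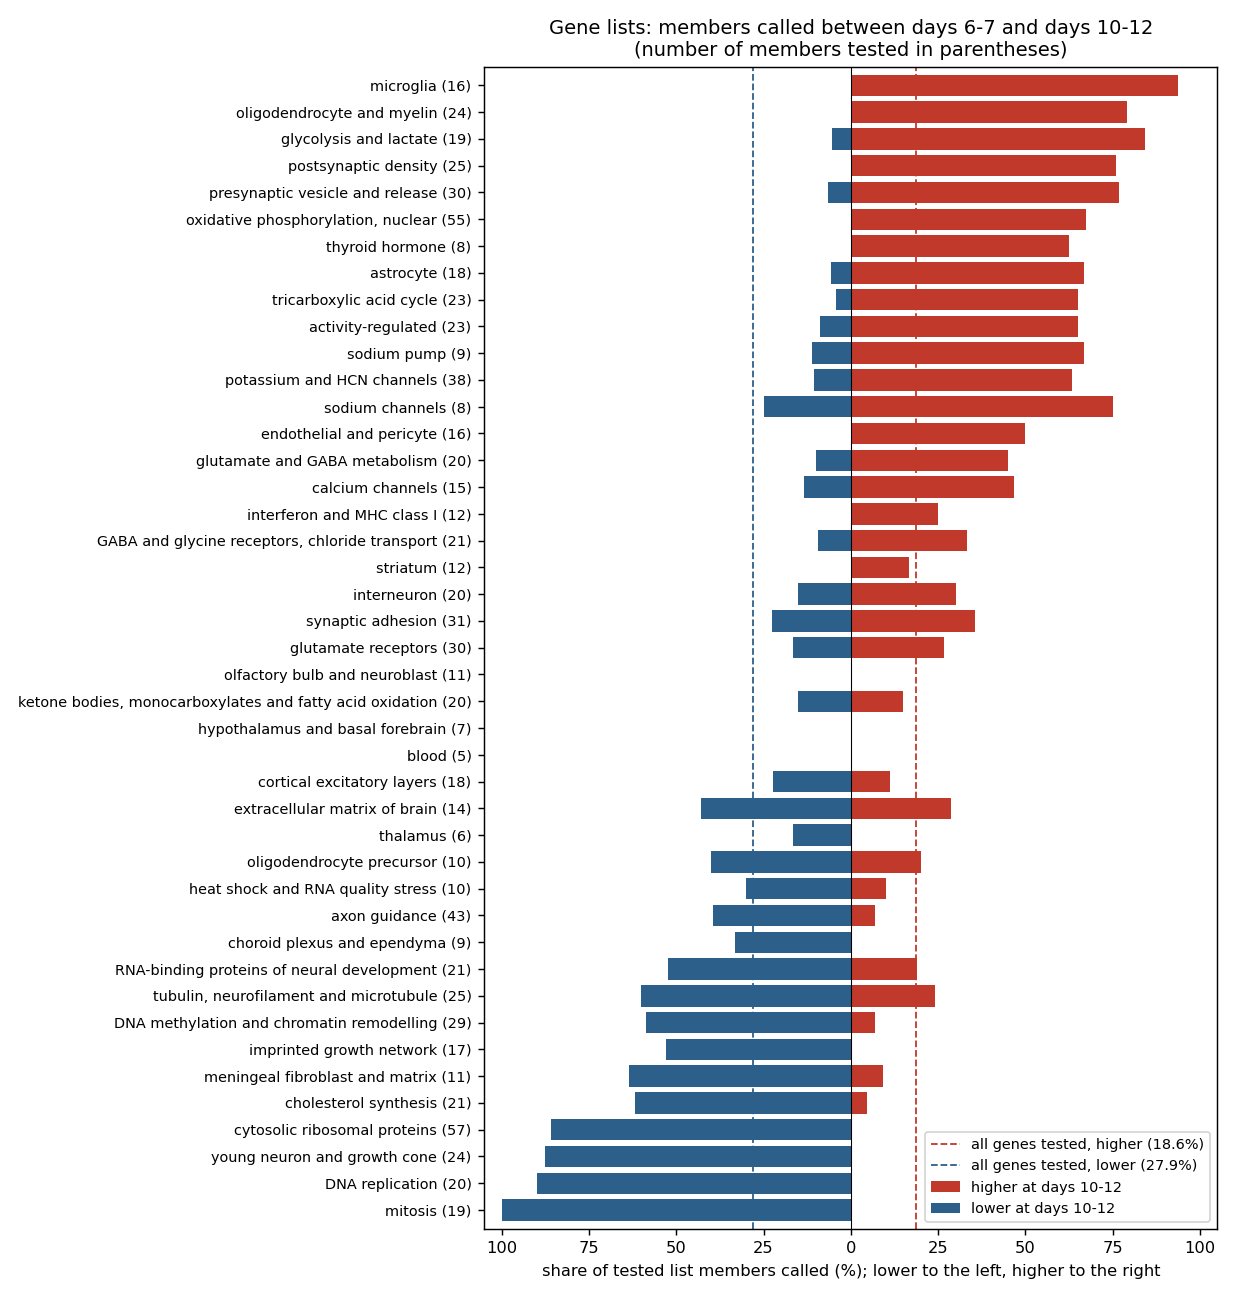
Share of the tested members of 43 gene lists that were higher (red, to the right) or lower (blue, to the left) at days 10-12, with the number of members tested in parentheses. Dashed lines mark the shares among all genes tested (18.6% and 27.9%). Microglia (93.8% higher) and mitosis (100% lower) are at the ends.

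Genes of cell division were lower almost throughout, by moderate amounts. All 19 tested genes of mitosis were lower at days 10-12 (median -0.66), as were 18 of 20 genes of DNA replication (median -0.58), and none of either list was higher. Mki67, a protein of chromosomes in cycling cells, ran from 1.92 to 4.31 RPKM (median 3.36) at days 6-7 and from 1.13 to 2.12 (median 1.53) at days 10-12. Its log2 change was -0.88 (SE 0.11, adjusted p = 1.72e-05), and mouse 35, of day 7, overlapped the older mice. Top2a, the topoisomerase that untangles replicated DNA, was 2.05 to 3.61 RPKM and then 0.97 to 1.82, with no overlap, and fell by 0.99 (SE 0.10, adjusted p = 3.06e-06). Cyclin A, Ccna2, which drives S phase and mitosis, fell by 0.80 and Prc1, which bundles the spindle of dividing cells, by 0.66. The kinase of mitotic entry, Cdk1, was near 1 RPKM, from 1.37 to 2.17 and then 0.556 to 1.36. Among replication genes the helicase subunits Mcm2 and Mcm3 fell by 0.66 and 0.78 and ribonucleotide reductase, Rrm1, by 0.61 (7.24 to 8.29 RPKM, then 4.03 to 6.3). None of these 3 overlapped between the ages, and in the whole list 11 of 20 were lower without overlap, against 6.95% of all genes. In the tissue covariate fit 18 of 19 mitosis genes were still lower.

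Promoters of mitotic genes are known to share short elements, CCAAT boxes and the cell cycle homology region TTTGAA, and are shown because the list moved as a block. In the 150 bases before the start of 16 mitosis genes with a RefSeq promoter (GRCm38.p6, 1 start per gene, the first in chromosome order), TTTGAA was present on either strand in 6 (37.5%) and CCAAT in 14 (87.5%). All 6 promoters with TTTGAA also held CCAAT. Among the 10766 tested genes with such a promoter, TTTGAA was present in 4.9%, CCAAT in 27.1% and both in 1.5%. DNA replication genes held TTTGAA in 1 of 16 promoters and CCAAT in 10. A match of letters is a description and not a bound site. Capitals mark both motifs, read 5′ to 3′ on the strand of the gene, for Mki67 (chr7:135716380-135716529, minus strand) and Top2a (chr11:99024190-99024339, minus strand):
Mki67: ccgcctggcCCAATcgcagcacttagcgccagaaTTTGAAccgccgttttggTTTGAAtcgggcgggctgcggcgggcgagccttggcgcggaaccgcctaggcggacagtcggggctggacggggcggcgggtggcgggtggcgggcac
Top2a: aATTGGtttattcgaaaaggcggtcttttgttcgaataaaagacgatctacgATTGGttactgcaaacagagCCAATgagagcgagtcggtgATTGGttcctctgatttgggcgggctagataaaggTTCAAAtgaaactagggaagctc

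Genes of young neurons and growth cones formed the list with the largest median fall, -1.06, with 21 of 24 members lower and none higher. Doublecortin (Dcx), a microtubule protein of migrating neurons, ran from 23.2 to 74.7 RPKM (median 42.6) and then from 7.92 to 24.2 (median 15). It fell by 1.79 (SE 0.23, adjusted p = 2.47e-05), and mouse 35 of day 7 (23.2) overlapped mouse 9 of day 10 (24.2). Draxin, a repellent for growing axons, was 4.56 to 11.5 RPKM and then 0.467 to 1.56, which is a fall of 2.48 (SE 0.14, adjusted p = 5.14e-08) with a wide gap between the groups. The transcription factors of immature neurons Sox4 and Sox11 fell by 1.15 and 1.47 with no overlap. Gap43, the growth cone phosphoprotein, went from 583-738 to 307-463 RPKM. Dpysl3, which binds tubulin in growth cones, went from 262-461 to 51-158, and Tmsb10, an actin monomer binder, from 159-228 to 74.3-117. Outside the list, among the 15 largest falls of all called genes, St8sia2 (-2.81), the sialyltransferase that makes polysialic acid on the neural adhesion molecule in early life, was 20.8 to 51.3 RPKM and then 2.27 to 11.2. Trim67 (-2.85), a ubiquitin ligase linked to axon branching, had a median of 31 and then of 3.77, so that both genes separated the 2 ages completely. Fabp7, the fatty acid binding protein of radial glia, fell by 1.92, from 276-380 to 63.4-170 RPKM.

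Tubulins exchanged members. Of 25 genes of the microtubule and neurofilament list 15 were lower and 6 higher (median -0.35). Tubb2b, a beta tubulin of migrating neurons, fell by 2.11 (SE 0.15, adjusted p = 1.54e-07), from 759-1160 RPKM to 134-395. Tuba1a, the main alpha tubulin of young neurons, had the highest level of the tubulins named here, 1690 to 2530 RPKM, and was 823 to 1300 at days 10-12 (log2 change -1.07). The neuron-specific Tubb3 fell by 0.94. In the other direction Tuba4a rose by 1.23, from 91.4-146 to 176-350 RPKM, and Tubb4a, which is abundant in oligodendrocytes and axons, by 0.69, with 1 older mouse, mouse 10 (191), inside the younger range of 174 to 207. Tubulin genes have near-identical coding parts, so how reads were shared among them is uncertain. Of the microtubule binders, Map1b fell by 0.82 and Map2 by 0.36. Among neurofilaments the heavy chain Nefh rose by 1.04 (adjusted p = 0.0128), while the light and medium chains Nefl (0.45, adjusted p = 0.0777) and Nefm (0.55, adjusted p = 0.113) did not pass. All 3 passed with the tissue covariates (1.61, 0.80 and 0.90). Atat1, which acetylates tubulin and is not in the list, fell by 1.17 from 31.4-43.6 to 12.9-21.7 RPKM.

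Axon guidance genes fell less uniformly, with 17 of 43 lower and 3 higher (median -0.17). Counted in either direction, the share called is near that of all genes. By direction 39.5% were lower and 6.98% higher, against 27.9% and 18.6% of all genes. After median ratio scaling 14 were lower and 4 higher. Adding the tissue covariates gave 21 lower and 6 higher, and leaving out mice 6, 7, 10 and 38 gave 16 and 6. Plxna3, a semaphorin receptor subunit, was 18.4 to 24.3 RPKM and then 7.57 to 15.2 (log2 change -1.06, adjusted p = 5.40e-07). Robo1, a receptor for the repellent Slit, fell by 0.66 and the semaphorin receptor Plxnb1 by 0.43, each with overlap between the groups. Plxnb1 changed by -0.27 with the tissue covariates.

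Myelin genes made up the largest rises, and these varied most between mice. Of 24 oligodendrocyte and myelin genes 19 were higher and none lower, with a median of 1.37. Mobp, a protein that compacts the sheath, was 0.246 to 11.9 RPKM (median 1.49) at days 6-7 and 7.28 to 97.9 (median 35.1) at days 10-12, a log2 change of 3.42 (SE 0.58, adjusted p = 0.00023). The day 7 mouse 35 (11.9) stood above mice 9 (7.28, day 10) and 10 (7.78, day 11), and mouse 38 of day 10 had the highest value. Myelin basic protein (Mbp) ran from 10.2 to 60.5 and then from 35.9 to 337 RPKM. In Mbp too, mouse 35 was the highest of the younger mice, mice 9 and 10 were the lowest of the older mice and mouse 38 was the highest. The myelin-associated glycoprotein Mag rose by 2.78, Mal, a proteolipid of the sheath, by 2.33, Cnp, an enzyme of oligodendrocyte cytoplasm, by 1.38 and the outer sheath protein Mog by 1.36. Opalin, a marker of mature oligodendrocytes, was at or near 0 at days 6-7 (0 to 0.12 RPKM) and 0.177 to 2.88 at days 10-12. Its log2 change of 1.52 depends on the pseudocount and was 3.00 with 0.1 and 1.01 with 1. In the fit with the tissue lists as covariates all 24 genes were higher, and Mobp then changed by 4.67, Mag by 3.81 and Mbp by 3.31. Mouse 38 was also high in hypothalamic and thalamic markers and mouse 35 in thalamic markers (0.87), and their part in these levels was not tested.

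Precursors of oligodendrocytes moved in both directions. Pdgfra, the growth factor receptor of dividing precursors, fell by 0.46 (adjusted p = 0.00877) and by 0.20 with the tissue covariates, where the call was lost (adjusted p = 0.0808). The proteoglycans Vcan and Cspg5 fell by 1.07 and 0.22 with no overlap. Neu4, a sialidase of the lineage, rose by 1.39 with no overlap (0.615 to 1.22 RPKM, then 2.39 to 6.11), and Gpr17, a receptor of precursors that are about to differentiate, by 0.76, from 13.6-30.2 to 24.7-71.1 RPKM. Of 10 tested genes 2 were higher and 4 lower, and 3 and 2 with the tissue covariates. Both rising genes were again highest in mouse 38.

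Astrocyte genes rose in 12 of 18 cases and fell in 1 (median 0.40), a fall that passed neither with the tissue covariates nor without mice 6, 7, 10 and 38. The glutamate transporter Slc1a2 had among the smallest p values of the table: it was 35.2 to 58.2 RPKM (median 53.3) and then 107 to 218 (median 177), a rise of 1.77 (SE 0.10, adjusted p = 5.80e-08). Every older mouse was above every younger one. Glutamine synthetase (Glul) rose by 1.03 from 86.6-127 to 130-239 RPKM, and the gap junction protein Gjb6 by 1.26. The early astrocyte transporter Slc1a3 rose by 0.33 and Gja1 by 0.30. The water channel Aqp4 (-0.11, adjusted p = 0.648) and the filament protein Gfap (-0.16, adjusted p = 0.444) did not pass. They were highest at days 10-12 in mice 37 and 38.

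Microglial genes rose in 15 of 16 cases, with a median of 0.75. Tmem119, a marker that separates microglia from blood macrophages, was 1.76 to 2.63 RPKM and then 4.35 to 8.32 (log2 change 1.42, SE 0.08, adjusted p = 5.14e-08). The purine receptor P2ry12, by which microglial processes sense ATP, was 3.97 to 6.69 and then 7.4 to 18.9, and the fractalkine receptor Cx3cr1 4.99 to 8.56 and then 9.14 to 13. Selplg, a selectin ligand, rose by 1.88. None of these 4 genes overlapped between the ages, and they were the only 4 of the 16 members without overlap. Among all genes tested, 3.68% were higher without overlap. Summed over the list, microglial markers went from 92.8-140 to 140-285 RPKM.

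Vessel genes rose in 8 of 16 cases and fell in none, with a median of 0.13. Ly6c1, a surface protein of capillary endothelium, rose by 1.30 with no overlap, and the glucose transporter of the blood-brain barrier, Slc2a1, by 0.67. The thyroxine transporter Slco1c1 rose by 0.41. Claudin 5 (Cldn5), the main tight junction protein, did not pass (-0.08, 95% confidence interval -0.22 to 0.05). Meningeal and matrix genes were lower in 7 of 11 cases and higher in 1 (median -0.51): the collagens Col1a1 and Col3a1 fell by 0.61 and 0.80, the transporter Slc6a13 and Fbln1 by 0.72 each, and Col6a1 rose by 0.76. With the tissue covariates 3 of the 11 were lower, and the 2 collagens no longer passed (adjusted p = 0.0528 and 0.0648). Haemoglobin genes and Alas2 of red blood cells did not pass, with 0 of 5 blood genes called. Hba-a1 was 12.6 to 45.4 RPKM at days 6-7 and 13.2 to 22.8 at days 10-12. Its reads cannot be told apart with certainty from those of the near-identical Hba-a2.

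**Figure D3:**
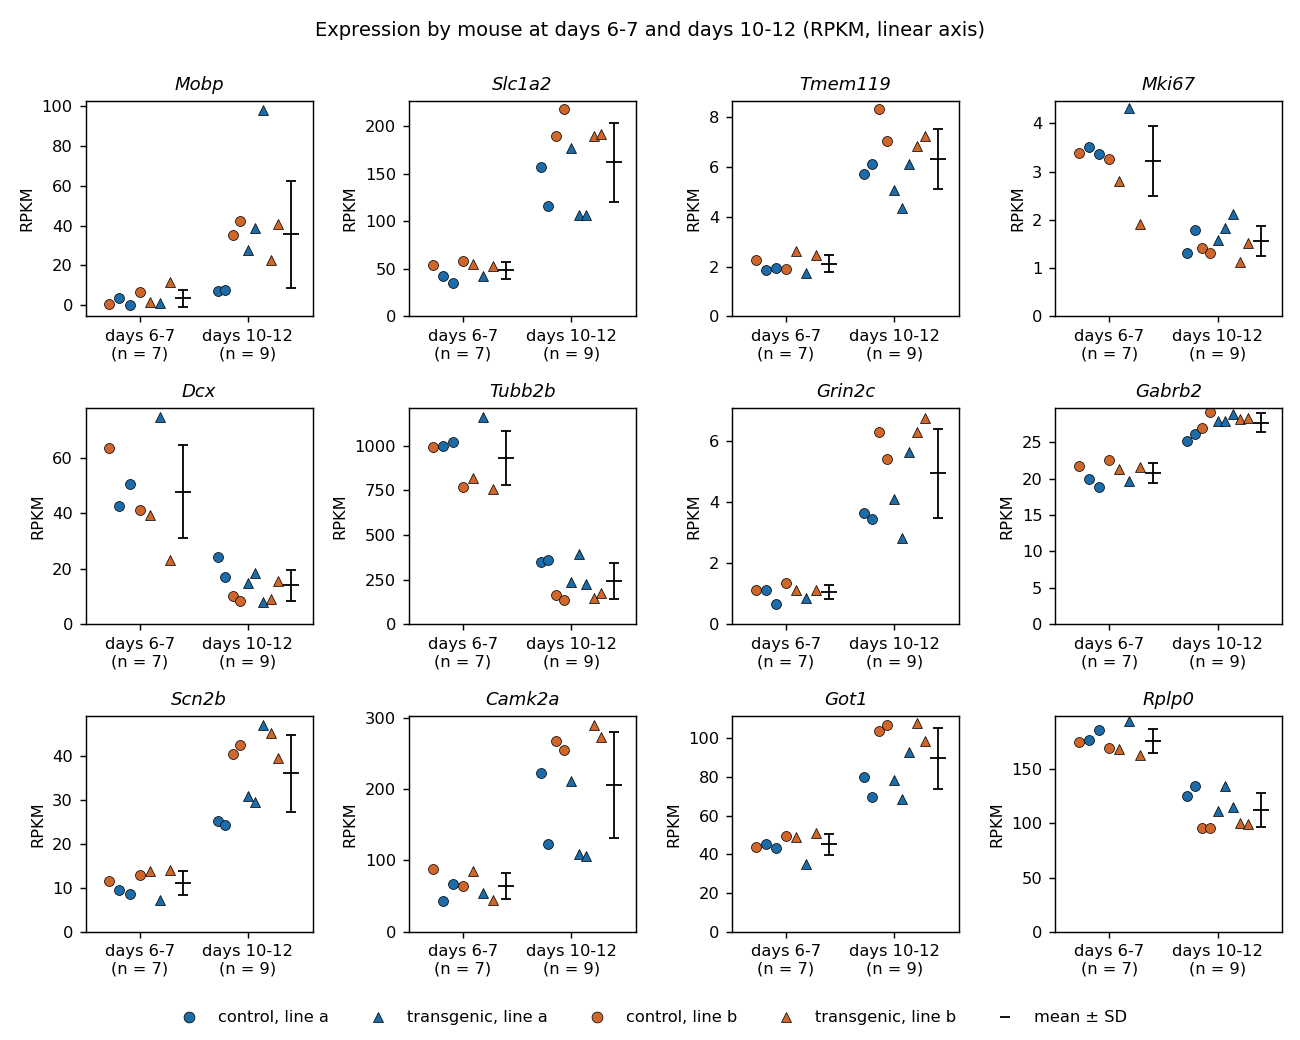
RPKM of 12 genes in each of the 16 mice (linear axes), by genotype (symbols) and line (colours), with mean ± SD at the right of each group. Slc1a2, Tmem119, Tubb2b, Grin2c, Gabrb2, Scn2b, Camk2a, Got1 and Rplp0 separate the ages completely, whereas single mice overlap for Mobp, Mki67 and Dcx.

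Synaptic genes rose on both sides of the cleft. Of 30 genes of vesicles and release 23 were higher and 2 lower (median 0.46). Only 1 was lower with the tissue covariates, and 1 without mice 6, 7, 10 and 38. Of 25 genes of the postsynaptic density 19 were higher and none lower (median 0.57), with 1 lower in the tissue covariate fit. The fusion protein Snap25 went from 63.0-78.5 to 89.6-172 RPKM (log2 change 0.92, SE 0.08, adjusted p = 8.85e-07). The vesicle proteins Syp and Syngr1 rose by 0.73 and 0.82, the calcium sensor Syt1 by 0.82 and Vamp2 by 0.50. None of these 5 overlapped, whereas in the whole list 6 of 30 were higher without overlap, against 3.68% of all genes. Slc17a7, which loads glutamate into the vesicles of cortical neurons, was 52.4 to 165 RPKM (median 98.5) and then 114 to 502 (median 343), a rise of 1.72 (SE 0.26, adjusted p = 0.000103). Its 3 lowest values at days 10-12 were in mice 10, 37 and 38 (148, 164 and 114), which lay within the younger range. Slc17a6, the transporter of thalamic and other subcortical neurons, fell by 1.23 (adjusted p = 0.0351) and by 0.17 with the tissue covariates (adjusted p = 0.673). It was highest in mice 6 and 35 (74.7 and 70.0), the mice of days 6-7 highest in the thalamic list, and its call was lost also without mice 6, 7, 10 and 38 (-1.33, adjusted p = 0.0654) and when any of mice 6, 8, 9, 11, 33, 35, 36, 39 or 40 was left out (adjusted p from 0.0508 to 0.0886). Syt2 and Vamp1 did not pass (0.48 and 0.44) and passed with the tissue covariates (1.33 for each).

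On the receiving side Camk2a, the kinase of lasting potentiation, went from 43.4-88.2 to 106-290 RPKM, a rise of 1.74 (SE 0.20, adjusted p = 6.57e-06) with no overlap, and its 3 lowest older values were again in mice 10, 37 and 38. Camk2b, the form of early synapses, rose by 0.31, and by 0.10 with the tissue covariates. The scaffolds Dlg1, Dlg4 and Dlg3 rose by 0.92, 0.61 and 0.33, and spinophilin (Ppp1r9b), an actin binder of spines, by 0.57. Neurogranin (Nrgn), which holds calmodulin in spines, was 165 to 366 RPKM and then 190 to 893, with mouse 38 (190) and mouse 10 (247) within the younger range, and rose by 1.21 (0.70 with the tissue covariates). Adhesion molecules of the synapse were mixed, with 11 of 31 higher and 7 lower. Lrrc4b, a postsynaptic partner of presynaptic phosphatases, fell by 0.43, the latrophilin Adgrl2 by 0.45 and cerebellin Cbln1, which bridges neurexins to delta receptors, by 0.95.

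Of 30 glutamate receptor genes 8 were higher and 5 lower, with a median of -0.02. The share called in either direction is near that of all genes. By direction 26.7% were higher and 16.7% lower, against 18.6% and 27.9% of all genes. Single subunits moved in opposite directions. Of the NMDA receptor genes, the obligatory subunit Grin1 was 19.3 to 27.5 RPKM and then 32.0 to 44.1 (log2 change 0.78, SE 0.07, adjusted p = 1.39e-06). The adult subunit Grin2a was 0.788 to 1.64 and then 1.26 to 3.65 (0.84, SE 0.17, adjusted p = 0.00109), with mouse 38 (1.26) the only older mouse in the younger range. Its early counterpart Grin2b was 6.61 to 17.6 and then 9.57 to 20.2 and did not pass (0.12, 95% confidence interval -0.28 to 0.52). Per length, Grin2b therefore still had a higher level than Grin2a at days 10-12, with means of 14.1 and 2.46 RPKM. Grin2c, a subunit of cerebellum and glia, had the largest change of the family and rose by 1.83 from 0.665-1.36 to 2.82-6.76 with no overlap. Grin2d and Grin3a, subunits of the young brain and of subcortical neurons, fell by 0.73 and 0.62, and by 0.44 and 0.33 with the tissue covariates. They were highest at days 6-7 in mice 6 and 35 for Grin2d (20.3 each) and in mice 6 and 33 for Grin3a (17.3 and 15.7). Of the AMPA receptor genes Gria3 rose by 1 with no overlap and Gria2, which keeps the channel closed to calcium, by 0.27 (0.15 with the tissue covariates), while Gria1 (0.17, adjusted p = 0.245) and Gria4 (-0.04, adjusted p = 0.86) did not pass. With the tissue covariates Gria4 was higher (0.32, adjusted p = 0.00356).

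Of 21 genes of GABA and glycine receptors and chloride transport 7 were higher and 2 lower (median 0.10). The share called in either direction is near that of all genes. By direction 33.3% were higher and 9.52% lower, against 18.6% and 27.9% of all genes. Adding the tissue covariates gave 11 higher and 2 lower. Gabrb2, a beta subunit of adult receptors, was 18.9 to 22.6 RPKM and then 25.2 to 29.2, a rise of 0.41 (SE 0.04, adjusted p = 1.13e-06) with no overlap. Gabra4, an alpha subunit found outside synapses, rose by 1.06. The extrasynaptic subunit Gabrd was 0.955 to 5.36 and then 4.59 to 16.3 and rose by 1.93, with mouse 37 (4.59) below mouse 5 (5.36). Gabra5 fell by 0.38 and the glycine receptor subunit of immature neurons, Glra2, by 0.69 (0.41 with the tissue covariates). For Gabra2 and Gabra3 no change passed (0.21 and 0.03). The chloride exporter Slc12a5, whose rise makes GABA inhibitory, was 44.1 to 85.9 RPKM and then 65.7 to 86.8, and missed the threshold (0.29, adjusted p = 0.0657). It passed with the tissue covariates (0.50, adjusted p = 0.00255) and after median ratio scaling (0.35). The importer Slc12a2 did not pass (0.10, adjusted p = 0.373).

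**Figure D4:**
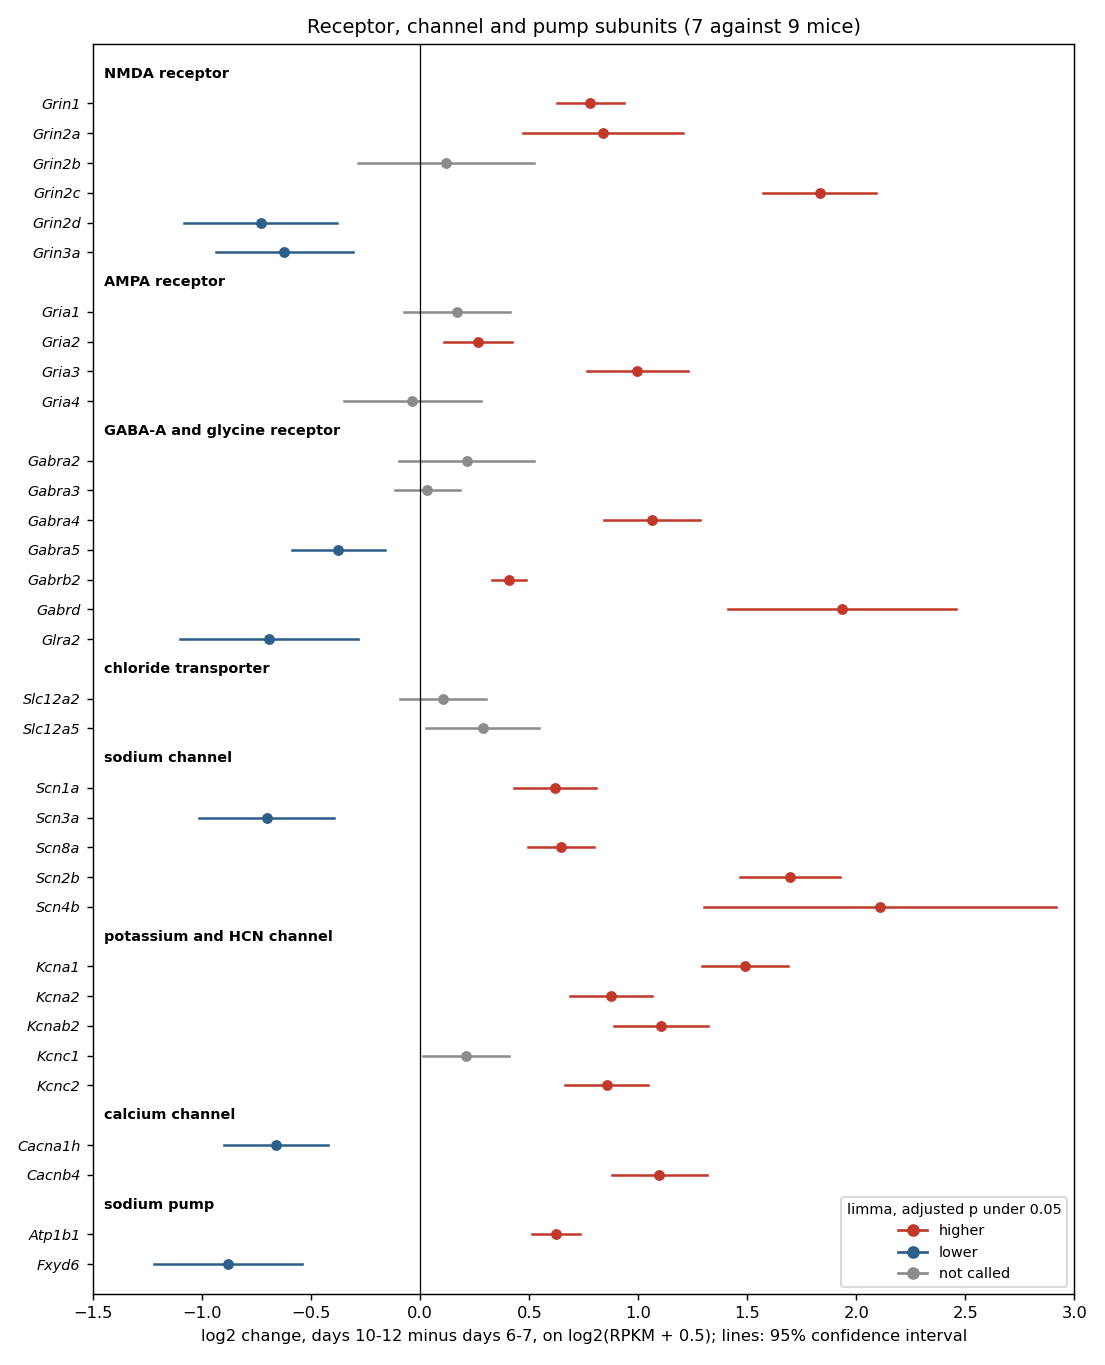
Log2 change between days 6-7 and days 10-12 (x axis, points) with 95% confidence intervals (lines) for named subunits of receptors, channels and the sodium pump, grouped by family. Red and blue mark genes higher or lower at an adjusted p under 0.05 and grey marks the others. Within the NMDA receptor genes the changes run from -0.73 (Grin2d) to 1.83 (Grin2c).

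Ion channels rose more often than they fell. All 8 sodium channel genes were called, 6 higher and 2 lower. The channel of inhibitory neurons and axons, Scn1a, was 5.69 to 8.75 RPKM and then 8.95 to 13 (log2 change 0.62, adjusted p = 5.44e-05), and Scn8a, the channel of mature axon initial segments, went from 17.7-23.0 to 23.5-35.4. The fetal form Scn3a fell by 0.70 from 10.4-14.4 to 5.85-13.5, where mice 10, 37 and 38 (13.5, 11.0 and 10.2) were the highest older values. Beta subunits, which speed and anchor the channel, rose more than the alpha subunits named here: Scn2b by 1.70 (7.33 to 14.1, then 24.2 to 47.1 RPKM) and Scn4b by 2.11. Scn4b was highest in mice 39, 10 and 38 (18.4, 16.3 and 11.3 RPKM), which were also the 3 highest older mice of the striatal list.

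Potassium and HCN channel genes were higher in 24 of 38 cases and lower in 4 (median 0.53), or lower in 2 with the tissue covariates. The axonal channels Kcna1 and Kcna2 went from 2.9-5.14 to 7.93-14.5 and from 5.28-7.41 to 10.1-15.2 RPKM, changes of 1.49 and 0.88 with no overlap. Their cytoplasmic beta subunit Kcnab2 rose by 1.10. Kcnc2, a channel that lets interneurons fire fast, rose by 0.85, while its relative Kcnc1 missed the threshold (0.21, adjusted p = 0.0777) and passed with the tissue covariates (0.39). Of 15 calcium channel genes 7 were higher and 2 lower, or 6 and 4 with the tissue covariates: the beta subunit Cacnb4 rose by 1.09, from 6.45-9.81 to 11.3-23.7 RPKM, and the low-threshold channel Cacna1h fell by 0.66. Sodium pump genes were higher in 6 of 9 cases and lower in 1. The beta subunit Atp1b1, which brings the pump to the membrane, rose by 0.62, from 337-430 to 483-639 RPKM. The modulator Fxyd6 fell by 0.88.

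Interneuron genes moved in both directions, with 6 of 20 higher and 3 lower. As a whole, the share called in this list is near the 46.5% of all genes. By direction, the share higher was above the 18.6% of all genes and the share lower was below their 27.9%. Parvalbumin (Pvalb), the calcium buffer of fast-spiking basket cells, was 0.161 to 1.48 RPKM and then 1.25 to 26.6, a rise of 2.37 (SE 0.43, adjusted p = 0.000395). The highest value was in mouse 38, and the next was 8.04 in mouse 12. Vip, the peptide of interneurons that inhibit other interneurons, was 1.35 to 3.02 and then 1.42 to 15 and rose by 1.79, and the 2 older mice within the younger range were mice 10 and 38 (1.42 and 2.12). Crh rose by 0.91, whereas Reln, of the cells of layer 1, fell by 0.63 with no overlap. Somatostatin (Sst, 0.35) and the enzymes of GABA synthesis Gad1 (0.07) and Gad2 (0.49) did not pass. Npy rose by 0.75 (adjusted p = 0.0277), and the call was lost with the tissue covariates (0.30, adjusted p = 0.179) and without mouse 6, 35 or 39 (0.55, 0.54 and 0.69). Of the layer genes 2 of 18 were higher and 4 lower (1 and 6 with the tissue covariates), among them Foxp2 of the deep layers (-0.87) and Cux1 of the upper layers (-0.29). Lamp5, a membrane protein of interneurons and upper layer neurons, was among the 15 largest rises at 2.42, from 2.58-6.92 to 10.2-44.5 RPKM.

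Activity-regulated genes were higher in 15 of 23 cases and lower in 2, with a median of 0.70. Arc, which carries receptor endocytosis at active synapses, was 1.89 to 8.43 RPKM and then 6.05 to 24.4 (log2 change 1.84, SE 0.22, adjusted p = 9.64e-06), and mice 10 and 37 (6.05 and 6.39) overlapped the younger range. Egr1, an immediate early transcription factor, was 5.68 to 23.0 and then 17.5 to 61.6 and rose by 1.70, with the lowest older values in mice 37 and 38 (17.5 each). Bdnf rose by 0.71, Junb by 0.97 and Fos by 0.76. Npas4 did not pass (0.29, adjusted p = 0.127). With the tissue covariates 10 of the 23 were higher and 1 lower, and the calls of Fos (0.41, adjusted p = 0.225) and Nr4a1 (0.38, adjusted p = 0.125) were lost. Leaving out mice 6, 7, 10 and 38 gave 17 higher and 1 lower.

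Thyroid hormone genes were higher in 5 of 8 cases and none was lower. In the tissue covariate fit 5 were higher and 2 lower, and leaving out mice 6, 7, 10 and 38 gave 5 and 1. Dio2, the astrocyte enzyme that makes active hormone, was 3.62 to 8.62 RPKM and then 7.52 to 24.8 (log2 change 1.69, adjusted p = 4.16e-05). The hormone-induced transcription factor Klf9 was 10.2 to 19.9 and then 26 to 50.2, a rise of 1.54 with no overlap, and the hormone-induced corepressor Hr rose by 1.33. In all 3 genes the low values of the older group were in mice 10, 37 and 38 (7.52 to 12.5 for Dio2, 26 to 27.9 for Klf9 and 1.73 to 6.43 for Hr).

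Imprinted genes of early growth were lower in 9 of 17 cases and none was higher (median -0.55). The tissue covariates gave 9 lower and 2 higher. H19, the untranslated RNA next to Igf2, was 8.63 to 21.1 RPKM and then 1.55 to 14.4. It fell by 1.99 (SE 0.28, adjusted p = 4.17e-05), and only mouse 37 (14.4) was in the younger range. Igf2 itself fell by 0.60, the cell cycle inhibitor Cdkn1c by 1.31 and neuronatin (Nnat), a small membrane protein of young neurons, by 1.93. Nnat was 244 to 572 RPKM and then 54.5 to 109 apart from mice 10, 37 and 38 (389, 202 and 272). Mest, Peg3 and Dlk1 did not pass.

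Regulators of chromatin and RNA fell more often than they rose. Of 29 chromatin genes 17 were lower and 2 higher, and the maintenance methyltransferase Dnmt1 fell by 0.57, from 23.2-24.8 to 14.3-19.5 RPKM, with no overlap. Ezh2, the histone methyltransferase of progenitors, and Hmgb3, a chromatin protein of dividing cells, fell by 0.72 and 1.02. The de novo methyltransferase Dnmt3a missed the threshold (0.22, adjusted p = 0.0585), and it passed after median ratio scaling (0.28) and with the tissue covariates (0.33). Of 21 RNA-binding proteins 11 were lower and 4 higher. Ptbp2, the splicing repressor of young neurons, fell by 0.43 from 38-44.6 to 27.7-37.2, Elavl3 by 0.61 and the stem cell protein Msi1 by 0.68, while Cpeb1, which controls translation of dendritic RNAs, rose by 0.76 and Rbfox3, the antigen known as NeuN, by 0.41.

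Matrix genes of the brain changed in both directions. Tenascin C (Tnc), of the embryonic matrix, fell by 1.44, from 10.6-22 to 3.91-8.22 RPKM, and neurocan (Ncan) by 0.53. The link protein Hapln1 rose by 1.01, from 4.0-6.32 to 7.29-13, and Tenascin R (Tnr), of perineuronal nets, by 0.50. None of these 4 overlapped, and of the 14 tested members 3 were higher and 4 lower without overlap, against 3.68% and 6.95% of all genes. The net proteoglycan Acan was 0.414 to 1.02 and then 0.412 to 1.09 RPKM and did not pass (-0.03). Of 14 tested genes 4 were higher and 6 lower.

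Energy metabolism rose in small steps across many genes. Of 19 genes of glycolysis 16 were higher and 1 lower (median 0.49), of 23 genes of the tricarboxylic acid cycle 15 and 1 (0.23), and of 55 nuclear genes of oxidative phosphorylation 37 and 0 (0.19). Enolase 2 (Eno2), the neuronal form, was 44 to 66.2 RPKM and then 86.5 to 133 (log2 change 0.97, SE 0.08, adjusted p = 6.75e-07), and Aldoc, the astrocyte aldolase, rose by 0.97. Genes of the rate-limiting phosphofructokinase changed in opposite directions. Muscle type Pfkm rose by 0.60, from 62.0-73.4 to 79.5-116 RPKM, and platelet type Pfkp fell by 0.73, from 62.2-75.5 to 33.7-54.5. Both separated the ages completely. In the cycle Mdh1, the cytosolic partner of the malate-aspartate shuttle, rose by 0.72 and Idh3a by 0.50. Idh1, which makes NADPH in the cytosol and is not in that list, had the opposite course and fell by 1.47 from 60.9-91.9 to 21.0-37.3 RPKM (SE 0.08, adjusted p = 5.14e-08). In the respiratory chain Sdha rose by 0.44, Cox8a by 0.56 and Ndufb9 by 0.33 (0.20 after quantile normalization). The 13 transcripts of the mitochondrial genome took 7.99% ± 0.604 (SD, n = 7) of the RPKM sum at days 6-7 and 9.62% ± 0.904 (n = 9) at days 10-12, a difference of 1.63 points (exact permutation p = 0.000787, two-sided).

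Genes that use milk-derived fuels were mixed, with 3 of 20 higher and 3 lower. The tissue covariates gave 5 higher and 2 lower, and leaving out mice 6, 7, 10 and 38 gave 3 and 5. The monocarboxylate transporter Slc16a1 rose by 0.45 and Cpt1c by 0.35 with no overlap, and Acat1, of ketone use, fell by 0.34. Oxct1, the enzyme that commits ketones to oxidation, rose by 0.19 (adjusted p = 0.00973) and by 0.06 after quantile normalization (adjusted p = 0.379). Of 20 genes of glutamate and GABA metabolism 9 were higher and 2 lower, and 15 and 2 with the tissue covariates. Got1, the cytosolic aspartate aminotransferase, was 35.1 to 51 RPKM and then 68.6 to 108 and rose by 1.01 (SE 0.07, adjusted p = 2.08e-07). Glud1, the mouse gene for glutamate dehydrogenase, was 49.6 to 56 and then 46.7 to 65.8 and did not pass (0.01, 95% confidence interval -0.12 to 0.13).

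Genes of cholesterol synthesis and of the ribosome were mostly lower. Of 21 cholesterol genes 13 were lower and 1 higher (median -0.32). Fdps, which makes farnesyl diphosphate, went from 44.9-66.5 to 21.9-34.0 RPKM (log2 change -0.85, adjusted p = 1.02e-05), Mvd fell by 0.68 and Cyp51 by 0.55. Cytosolic ribosomal proteins were lower in 49 of 57 cases and none was higher (median -0.38). Rplp0, of the ribosomal stalk, went from 163-194 to 95.4-134 RPKM, a fall of 0.69 (SE 0.05, adjusted p = 2.43e-07), and Rpl15 fell by 0.66. Ribosomal protein genes have many processed copies in the genome, so their absolute levels are uncertain. After median ratio scaling 47 of the 57 were still lower.

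Of 10 heat shock and stress genes 3 were lower and 1 higher, shares near those of all genes. Leaving out mice 6, 7, 10 and 38 gave 2 lower and 2 higher. Txnip fell by 0.84 and the cell cycle inhibitor Cdkn1a by 0.76, and Hsph1 rose by 0.46, a call lost with the tissue covariates (0.22, adjusted p = 0.147). Of 12 interferon and antigen presentation genes 3 were higher and none lower. The tissue covariates gave 5 higher and none lower, and leaving out mice 6, 7, 10 and 38 gave 2 and 1.

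Genes with the smallest p values came from many functions. Htra1, a secreted protease that is abundant in astrocytes, rose by 1.27 (SE 0.05, adjusted p = 6.63e-09), from 10.4-16.2 to 25.1-40.4 RPKM. Gpr158, a receptor of cortical neurons, rose by 1.56, Ogfod1, an oxygenase that modifies a ribosomal protein, by 1.16 and Tef, a transcription factor of the circadian output, by 0.96. Sox12, a relative of Sox4, fell by 1.23. All 5 separated the ages completely. Fam107a, an actin-binding protein of astrocytes and neurons, had the largest rise after Mobp (2.88, from 1.86-4.99 to 9.08-38.2 RPKM). Some of the large falls moved with the thalamic list, whose part in them was not tested. Ebf3 (-1.85), a transcription factor of developing neurons, was highest in mice 6 and 35 (12.4 and 15.6 RPKM) and Tcf7l2 (-1.70), a thalamic transcription factor, likewise (36.7 and 22.9). With the tissue covariates they changed by -0.78 (adjusted p = 0.2) and -0.28 (adjusted p = 0.396), and both calls were lost. Tcf7l2 is itself a member of the thalamic list. Its match with that list and its smaller change with the covariates are therefore partly built in. Tcf7l2 also lost its call without mice 6, 7, 10 and 38 (-1.42, adjusted p = 0.0785) and without mouse 6, 9, 35 or 40 alone (-1.26, -1.52, -1.35 and -1.57).

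The change was then read in control and in transgenic mice separately, which share no animal. In the 8 control mice 3624 genes (23.6% of those tested) were called and in the 8 transgenic mice 2947 (19.2%). Of the genes called in controls 99.5% had the same sign in transgenic mice and 60.6% were also called there. Of those called in transgenic mice 99.3% had the same sign in controls. Over all genes tested, called or not, 84.0% had the same sign in both. Across all genes, which are not independent replicates, Pearson's r between both changes was 0.824 and Spearman's rho 0.819. No gene (0.0%) passed for a difference of the change between genotypes (limma, Benjamini-Hochberg), 271 genes (1.77%) had an unadjusted p under 0.05, and the median standard error of that difference was 0.18. The 3 genes of smallest p were Tmem267 (-0.34 in controls, 0.63 in transgenic mice), Mir345 (-2.03 and 1.61) and 1810012K08Rik (0.13 and -1.05). Mir345 is a short row that was 0 in some mice of each age.

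Lines differed in how many genes passed. In line a, from day 6 to days 10-11, 1519 genes (9.9%) were called, and in line b, from days 6-7 to day 12, 6431 (41.9%). Of the genes called in line a 99.1% had the same sign in line b and 90.3% were called there. Of those called in line b 93.8% had the same sign in line a and 21.3% were called. Over all genes tested, called or not, 77.6% had the same sign in both lines. The difference between the lines passed for 0 genes (0.0%), with 1158 genes (7.54%) at an unadjusted p under 0.05 and a smallest adjusted p of 0.368. Without mouse 9 or without mouse 36, 1 gene passed. The 3 genes of smallest p were Gm12264 (1.10 in line a and -0.55 in line b), Simc1 (0.02 and -0.54) and Arpp19 (0.04 and 0.83). The change of Nrgn was 0.59 in line a and 1.72 in line b and that of Vip 0.97 and 2.45, and neither difference passed. Without mouse 11 the fall of Simc1 over all mice (-0.27, adjusted p = 0.0194) lost its call (-0.23, adjusted p = 0.0519). Mice 10 and 38, high in the hypothalamic list, are both of line a, as are mice 6 and 7. The effect of line, the 1 to 2 days of age between the older mice of the 2 lines and the level of hypothalamic markers cannot be told apart.

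The transgene itself was followed in transgenic mice only. GLUD2 was 4.22, 4.56 and 5.29 RPKM in the 3 mice of days 6-7 and 5.66, 6.74, 7.16, 7.21 and 7.26 in the 5 of days 10-12, so that the groups did not overlap. The means were 4.69 ± 0.545 (SD, n = 3) and 6.81 ± 0.672 (n = 5), a difference of 2.12 RPKM (exact permutation p = 0.0179, two-sided, 56 splits). The exact p was 0.0571 when any of mice 37, 38, 39 or 40 was left out. Control mice had up to 0.572 RPKM in this row. The other row of the inserted human sequence, lincBAC, was 3.1 to 7.03 and then 3.35 to 9.43 RPKM, and its difference of 1.07 did not pass (exact permutation p = 0.536). In controls lincBAC reached 0.0961 RPKM.

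Seen over all 7 age groups, the step from days 6-7 to days 10-12 was not the same part of each gene's course. The levels that follow are means over mice and a description. Age groups hold different mice, but a step into days 6-7 or out of days 10-12 reuses mice of the step described. Slc1a2 had most of its later level by days 10-12: 21.2 RPKM at day 3, 48.6 at days 6-7, 162 at days 10-12 and 187 at days 21-34. Slc17a7 (63.5, 102, 325 and 360) and Dio2 (3.57, 5.57, 18.4 and 18.9) had the same form. Others were still far from their later level at days 10-12, such as Mobp, with 35.6 and then 160 RPKM, Scn4b, with 8.13 and then 47, and Snap25, with 132 and then 258. Among falling genes Tubb2b went from 1350 at day 3 to 932, 243 and 63.4, and Dcx from 102 to 47.9, 14 and 6.79. Another set had its highest mean at days 10-12. Oxct1 went from 118 to 156, 177 and 104 RPKM, Slc16a1 from 12.3 to 16.7, 22.5 and 9.27, Hapln1 from 1.85 to 5.18, 10.7 and 6.24, and Gpr17 from 9.75 to 21.7, 38.3 and 21.4. Grin2d (9.2, 15.1, 9.7 and 4.01) and Grin3a (9.15, 13, 8.5 and 3.73) had their highest mean at days 6-7.

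**Figure D5:**
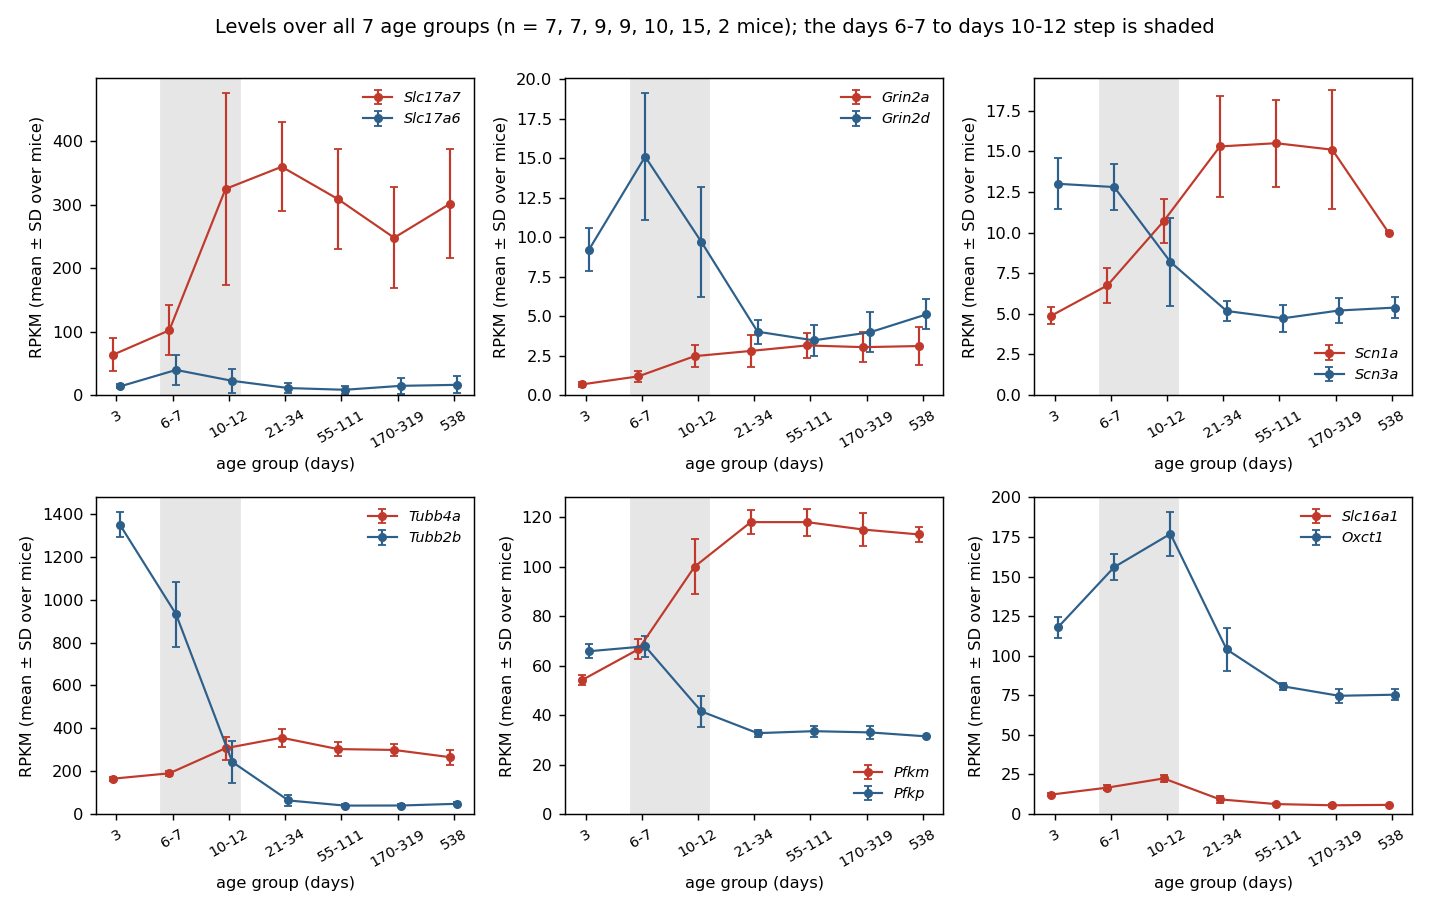
Mean RPKM ± SD over mice in the 7 age groups of the series (x axis, not to scale in time) for 6 pairs of genes, with the step from days 6-7 to days 10-12 shaded. Scn1a and Scn3a, Tubb4a and Tubb2b, and Pfkm and Pfkp cross within the shaded step or beside it, whereas Slc16a1 and Oxct1 are highest at days 10-12.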

How the data were processed

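The deposited values are RPKM per gene and library, in 1 table of 18610 rows for 59 mice. The authors aligned reads with STAR to mm9, per the submitters' processing notes. STAR's version, how reads were counted and the annotation were not given in the sources used here. Each of the 59 columns could be matched to mice by their titles. Rows carry mouse Ensembl identifiers (18608) or the names GLUD2 and lincBAC. GENCODE vM21 gave symbols for 17734 of them and none for 874, and no coordinates of the table's build are given. Low values rise in steps of 1 read: in 576 low genes 100.0% of values were whole reads within 0.05, which gave the depth estimate. Its counting error is largest for genes near 1 RPKM.

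Values were analysed as log2(RPKM + 0.5), so that fold changes of low genes are understated. A gene was tested if 7 or more of the 16 libraries had 0.5 RPKM or more (15350 genes). The model in limma 3.58.1 (R 4.3.3) had stage, genotype and line, and let the prior variance follow the mean level. Two-sided p values took the Benjamini-Hochberg adjustment over all genes tested, with a threshold of 0.05. Interactions of stage with genotype and with line were fitted on the same mice. Single values were compared by exact permutation tests. Mice were separate animals. The same fit was also run on simulated data. Their errors were independent between genes, so they held no tissue difference shared by many genes. Alternatives changed the pseudocount (0.1 and 1), the filter, the scaling, the covariates, the weights and the mice included. After the data were seen, the mean levels of 4 tissue lists were added as covariates, and mice 6, 7, 10 and 38 were left out because their hypothalamic or thalamic list mean was over 1 above the mean of the 16. The mice left out were all of line a, so the fit without them rests mostly on line b.

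There were 43 gene lists with 883 different members, of which 875 were in the table and 848 tested. The members, lists and comparisons were chosen with earlier results of these data known, so list counts are descriptions. Named genes are the 15 largest rises and 15 largest falls among called genes with a mean of at least 1 RPKM, the 3 members of each list with the smallest p, a set of genes written down with the lists, the 3 genes of smallest p for each interaction and the 10 called genes of smallest p (249 in all). Some of them are not reported here. Promoter letters are from RefSeq (GRCm38.p6). Tables were made in Python (3.11.15) using pandas 2.3.3 and numpy 2.4.6, exact tests with scipy 1.17.1, and figures with matplotlib 3.10.9.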

Additional observations from a re-analysis of the deposited data

Results flagged for a closer look

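In 20 of 474 groups of mice tested, 1 mouse stood apart from the others of its age by Dixon's test, 4.22% where chance gives about 1 in 20. What marked each gene below is that gap, and no explanation was tested. In mouse 10 (days 10-12) Txnip (17.2 RPKM, others 7.57 to 9.59), Map2 (91.3, others 62.6 to 72.7) and Ptbp2 (37.2, others 27.7 to 31.3) were high, and Tubb4a (191, others 271 to 369), Oxct1 (148, others 172 to 196) and Hr (1.73, others 5.6 to 11.6) were low. Mouse 10 was also the highest of the 16 in the hypothalamic and striatal lists.

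Mouse 5 (days 6-7) was high in Ppp1r9b (70.6, others 56.6 to 60.5), Dlg3 (34.8, others 25.6 to 28.9), Dlg4 (120.0, others from 92.1) and Oxct1 (174, others 149 to 157), and low in Dlk1 (0.163, others 1.42 to 3.21). Mouse 34 (days 6-7) was high in Plxna3 (24.3, others 18.4 to 20.4) and in Pomc (47.1, others 0.691 to 2.42), the hormone precursor of the pituitary and arcuate nucleus, and low in Pdyn (3.12, others 6.73 to 8.96). Slco1c1 was low in mouse 7 (17.3, others 20.5 to 23.2) and Opalin high in mouse 35 of day 7 (0.12, others 0 to 0.0474). At days 10-12 mouse 37 was high in H19 (14.4, others 1.55 to 4.79) and Col3a1 (10.2, others 3.4 to 5.55), and mouse 38 in Neu4 (6.11, others 2.39 to 3.7) and Slc12a2 (11.8, others 6.44 to 8.51).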

How the results depend on the processing

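Counts of genes moved by over 1.5 times in 3 of the 4 fits on 8 mice. In control mice alone 1482 genes were higher and 2142 lower, in transgenic mice alone 1263 and 1684, and in line a alone 679 and 840, whereas line b alone gave 2497 and 3934. Of the list members 293 were higher and 248 lower. In controls 186 were higher, in transgenic mice 169 and 124 lower, in line a 88 and 95, and in line b 277 and 250. Without each mouse in turn the counts ran from 2606 to 3011 higher and from 3895 to 4539 lower, for list members from 280 to 306 and from 234 to 263, for the line interaction from 0 to 1, for the genotype interaction they were 0, the mitochondrial difference ran from 1.43 to 1.78 points, GLUD2 from 1.88 to 2.42 RPKM and lincBAC from -0.115 (without mouse 34) to 1.86. With the tissue lists as covariates 2968 genes (19.3%) were higher and 3804 (24.8%) lower, and without mice 6, 7, 10 and 38 2790 (18.2%) and 4232 (27.6%). Of the 200 named genes that were called, 200 kept direction and call with a pseudocount of 1 and after median ratio scaling, 199 with a pseudocount of 0.1 (Trbj2-3 was lost, 3.23, adjusted p = 0.0508) and after quantile normalization (Oxct1 was lost), 183 with the tissue covariates, 196 without the 4 mice, 161 in controls, 149 in transgenic mice, 113 in line a and 189 in line b. The cause of these losses was not tested. The directions of Gria4 (0.316 with the tissue covariates), Gm12264 (-0.553 in line b) and Simc1 (0.023 in line a) turned. Genes near 1 RPKM, such as those of mitosis, rest on few reads at this depth. No paired analysis was possible because the labels give each mouse its own number.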
